A study of Mus with 6 samples.

Results

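The NR4A genes Nr4a1, Nr4a2 and Nr4a3 encode 3 orphan nuclear receptors, also known as Nur77, Nurr1 and Nor1. These genes were followed in mouse lens epithelial cells (LECs) immediately and 6 h after an injury that models cataract surgery. They were chosen as the complete NR4A subfamily by their Ensembl identifiers, and they are 3 of the 55421 genes counted. All wild type C57BL/6 mice were 2 months old by the labels, while the methods of the study give an older range. Lens fiber cells were removed from the eye, and lens capsules with the attached LECs were taken either at once (0 h post cataract surgery, PCS) or at 6 h PCS. There were 3 libraries for each time point, each made from 5 pooled capsules, and the 2 time points differ in nothing else that the labels record. By the study's design text, one eye was operated first and the other eye of that mouse 6 h later. Pools of both time points can thus share mice, and which pools do is not given in the sources used here.

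NR4A proteins are transcription factors of the nuclear receptor superfamily that have no known physiological ligand bound in the usual pocket. Their activity is set mainly by how much protein is made, and their genes are classic immediate early genes that are switched on by growth factors, cAMP, calcium and stress. They bind DNA as monomers, as dimers of the subfamily or, for NR4A1 and NR4A2, together with retinoid X receptors.

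Each library held from 18039974 to 24701039 gene counts, a count being a read pair. Levels are given as CPM, counts per 1000000 after TMM normalization, a scaling by edgeR that centers the bulk of genes, or as FPKM, which also divides by the exon length of the gene and was computed here on each library's total gene count. Of the 16810 genes that passed the low-count filter, 5.35% were differentially expressed genes (DEGs), and 4.53% were DEGs with higher levels at 6 h PCS. A DEG changed more than 2-fold with an FDR no higher than 0.05, where FDR stands for the p-value of the quasi-likelihood test in edgeR, adjusted by Benjamini and Hochberg over all genes tested, and SE for the standard error of the log2 fold change. Scaled by library size alone, the median log2 fold change of all genes was −0.32 in place of −0.0030, and 572 DEGs were higher and 627 lower at 6 h PCS, against 762 and 138 with TMM. All 3 NR4A genes passed the low-count filter. In 15.3% of all tested genes the 3 libraries at 6 h PCS all lay above the 3 at 0 h PCS. Library 6 h replicate 3 stood apart in pigment cell markers, as given below beside the results that it touches. The mRNAs of the lens markers Pax6, Foxe3, Prox1 and Epha2 were present in every library, and their sum per 1000000 gene counts was 1375 to 1667 at 0 h and 909 to 983 at 6 h PCS. Summed in CPM after TMM, they were at 1237 to 1457 at 0 h and 920 to 1191 at 6 h PCS. In CPM, Prox1 was lower in every 6 h library (log2 fold change −0.75 and FDR 0.0119), while Pax6 had a lower mean but overlapped (−0.51 and FDR 0.156). Neither was a DEG. Epha2 was a DEG that rose (log2 fold change 1.21 and FDR 0.0134), and Foxe3 was not a DEG. The other 4 lens epithelial markers and all 8 lens fiber markers of the lists used here were not analysed here for want of a symbol.

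All 3 NR4A mRNAs were at higher levels at 6 h PCS than at 0 h PCS, with no overlap between the libraries of the time points. Nr4a1 rose by a log2 fold change of 3.92, or 15.2-fold, and Nr4a2 rose by 2.85, or 7.22-fold. For Nr4a3 the log2 fold change was 2.58, or 5.98-fold, but it did not pass the FDR limit. In these bulk libraries, more cells that express a gene and more of its mRNA per cell cannot be told apart.

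Nr4a1 (ENSMUSG00000023034, chromosome 15 of GRCm38, 101253902 to 101274795) is the family member best known for its rapid induction by growth factors and by receptor signaling in lymphocytes. Its level was 37.6, 18.1 and 26.3 CPM in 0 h replicates 1, 2 and 3, and 260.4, 264 and 720.3 CPM in 6 h replicates 1, 2 and 3. The lowest library at 6 h PCS was 6.93 times the highest at 0 h PCS. Libraries 6 h replicates 1 and 2 were alike, and replicate 3 was far above both. The means were 27.3 ± 9.76 CPM at 0 h and 415 ± 264 CPM at 6 h PCS (SD, n = 3). The log2 fold change of 3.92 had an SE of 0.559 and a 95% interval from 2.54 to 5.31 (FDR 0.0131). Among the 16810 tested genes its log2 fold change ranked 93.

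Nr4a2 (ENSMUSG00000026826, chromosome 2, 57106830 to 57124003) is needed for the development of midbrain dopamine neurons. It was the scarcest member, with 39, 23 and 36 read pairs in 0 h replicates 1, 2 and 3 and 83, 91 and 328 in 6 h replicates 1, 2 and 3. These counts correspond to 1.68, 0.838 and 1.55 CPM at 0 h PCS and to 5.57, 4.09 and 19.8 CPM at 6 h PCS. The lowest library at 6 h PCS was 2.44 times the highest at 0 h PCS, and 6 h replicate 3 was again the highest. The means were 1.36 ± 0.453 and 9.81 ± 8.65 CPM (SD, n = 3). The log2 fold change of 2.85 had an SE of 0.626 and a 95% interval from 1.44 to 4.27 (FDR 0.0252). In RefSeq, a predicted gene overlaps the span of Nr4a2, and whether it takes reads of Nr4a2 was not tested.

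Nr4a3 (ENSMUSG00000028341, chromosome 4, 48045078 to 48086447) is partly redundant with Nr4a1 as a tumor suppressor in myeloid cells. Its level was 14.2, 5.98 and 18.3 CPM in 0 h replicates 1, 2 and 3, and 51.1, 41.6 and 136.5 CPM in 6 h replicates 1, 2 and 3. The lowest library at 6 h PCS was 2.28 times the highest at 0 h PCS. The means were 12.8 ± 6.25 and 76.4 ± 52.3 CPM (SD, n = 3). The log2 fold change of 2.58 had an SE of 0.662 and a 95% interval from 0.91 to 4.25 (FDR 0.0867). Nr4a3 was called a DEG by DESeq2 (adjusted p = 0.00388) and by the exact test of edgeR (adjusted p = 0.00183), and it was also called without robust estimation in the same quasi-likelihood test (FDR 0.0182). A block for the replicate number also led to a call, as given with its limits in the closing section. The call of Nr4a3 thus depended on the test and on settings of the fit.

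**Figure D1:**
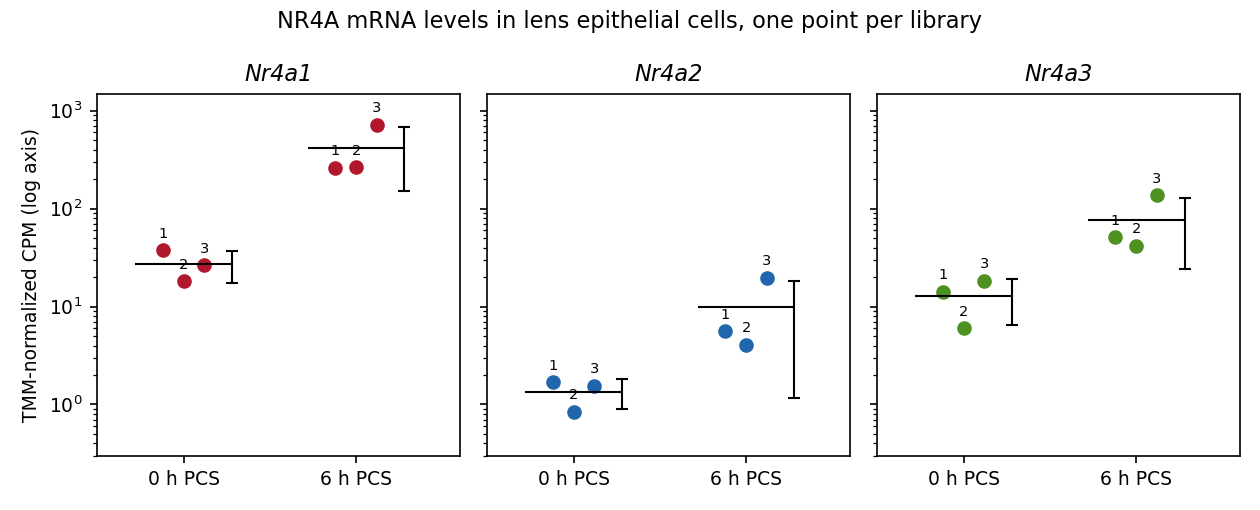
TMM-normalized CPM on a log axis for Nr4a1, Nr4a2 and Nr4a3 at 0 h and 6 h PCS, with one numbered point per library, a line at the mean and bars for the SD (n = 3). For each gene every 6 h library lies above every 0 h library, and 6 h replicate 3 is the highest, with 720.3 CPM for Nr4a1, 19.8 CPM for Nr4a2 and 136.5 CPM for Nr4a3.

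The replicates within a time point differed more in Nr4a1 and Nr4a3 than in most genes of a like level. Among the 500 tested genes nearest to Nr4a1 in mean log2 CPM, 97.2% had a lower SD of log2 CPM at 0 h PCS and 98% a lower one at 6 h PCS. The SD of Nr4a1 was 0.524 at 0 h PCS and 0.841 at 6 h PCS, against medians of 0.131 and 0.190 in those 500 genes. For Nr4a3 the SD was 0.836 at 0 h PCS and 0.915 at 6 h PCS, above 96.8% and 97.6% of its 500 nearest genes. Nr4a2, at far lower counts, had an SD of 0.508 at 0 h PCS, above 60.2% of its 500 nearest genes, and of 1.19 at 6 h PCS, above 95.2% of them. At 0 h PCS, replicate 2 was the lowest library for all 3 genes. The highest library at 0 h PCS was 2.07 times the lowest for Nr4a1, 2.00 times for Nr4a2 and 3.05 times for Nr4a3.

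Library 6 h replicate 3 carried the highest level of each NR4A gene and also the highest summed level of pigment cell markers. Relative to the mean at 0 h PCS, Nr4a1 was 9.53-fold, 9.66-fold and 26.4-fold higher in 6 h replicates 1, 2 and 3. Nr4a2 was 4.11-fold, 3.02-fold and 14.6-fold higher, and Nr4a3 was 4.0-fold, 3.25-fold and 10.7-fold higher. The 4 named pigment cell markers (Tyr, Tyrp1, Dct and Pmel, of 5 listed) summed to between 58.8 and 227.7 per 1000000 gene counts at 0 h PCS, and to 63.9, 450.5 and 1721 in 6 h replicates 1, 2 and 3. Without 6 h replicate 3, the log2 fold change of Nr4a1 was 3.26 (SE 0.274 and FDR 0.000741), that of Nr4a2 was 1.83 (FDR 0.0586) and that of Nr4a3 was 1.86 (FDR 0.0657). Nr4a1 thus remained a DEG without that library, and Nr4a2 did not. Calls also depended on libraries at 0 h PCS, since Nr4a1 had an FDR of 0.0512 without 0 h replicate 3, and Nr4a2 had FDRs of 0.0947, 0.0783 and 0.0859 without 0 h replicates 1, 2 and 3.

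Other cells can express NR4A genes, and their markers were summed over the listed genes that had a symbol. The 5 named leukocyte markers (of 10) summed to between 14.9 and 23.0 per 1000000 gene counts at 0 h and to between 13.5 and 27.5 at 6 h PCS, so the time points overlapped, although 1 of the 5, Cd68, was a DEG that rose with a log2 fold change of 2.55 (SE 0.499 and FDR 0.0129). The 5 erythrocyte markers summed to between 9.08 and 21.2 at 0 h and to between 60.7 and 131 at 6 h PCS. All 5 were DEGs that rose, against the same share of 11.6%. The 2 named corneal epithelial markers, Krt12 and Krt5, summed to between 0.850 and 16.0 at 0 h and to between 60.6 and 103 at 6 h PCS. The 4 endothelial markers summed to between 4.69 and 29.2 at 0 h and to between 19.7 and 30.5 at 6 h PCS, and none of the 4 was a DEG. In CPM, Cdh5 (log2 fold change 3.33 and FDR 0.0529) and Pecam1 (1.98 and FDR 0.0644) were higher in every 6 h library, while Kdr (0.75 and FDR 0.634) and Tek (0.81 and FDR 0.581) overlapped between the time points. The 3 named stromal markers had sums of 214 to 297 at 0 h and of 106 to 206 at 6 h PCS, but summed in CPM after TMM they overlapped, from 192 to 259 at 0 h and from 129 to 235 at 6 h PCS. In the stromal list Pdgfra and Dcn were lower in every 6 h library, and Col1a1, which was not a DEG and overlapped between the time points, was at 14.6, 6.63 and 5.91 CPM in 0 h replicates 1, 2 and 3 and 3.96, 37.7 and 116 CPM in 6 h replicates 1, 2 and 3. At 6 h PCS the leukocyte, stromal and pigment cell sums, Col1a1, Cdh5 and Pecam1 were highest in replicate 3, the library with the highest NR4A levels. Within those lists, by contrast, the CPM of the stromal marker Pdgfra (122.5, 142.9 and 116.5 in 6 h replicates 1, 2 and 3) was lowest in replicate 3. The leukocyte marker Itgam was also lowest there, and Ptprc was highest in replicate 2. The endothelial sum was highest in replicate 1, with Kdr and Tek lowest in replicate 3, and the erythrocyte and corneal sums were highest in replicate 2. The part of these cells in the NR4A levels was not tested. None of the named markers of these cell types was at 0 counts in any library.

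Per exon length, Nr4a1 was the most abundant member in every library, followed by Nr4a3 and then Nr4a2. Nr4a1 stood at 8.66 ± 2.97 FPKM at 0 h PCS and 105.2 ± 65.0 FPKM at 6 h PCS (SD, n = 3). Nr4a3 was at 2.39 ± 1.2 and 11.3 ± 7.52 FPKM, and Nr4a2 at 0.373 ± 0.124 and 2.13 ± 1.85 FPKM (SD, n = 3). The 3 genes did not overlap in FPKM at 0 h PCS, since the lowest Nr4a1 library had 5.73 FPKM, the highest Nr4a3 library 3.49 FPKM, the lowest Nr4a3 library 1.11 FPKM and the highest Nr4a2 library 0.451 FPKM. At 6 h PCS they did not overlap either, with Nr4a1 from 61.3 to 179.8 FPKM, Nr4a3 from 6.86 to 19.97 FPKM and Nr4a2 from 0.997 to 4.26 FPKM. The summed FPKM of the family was 14.7, 7.07 and 12.5 in 0 h replicates 1, 2 and 3 and 69.5, 82.3 and 204 in 6 h replicates 1, 2 and 3. Among the 1924 tested genes with an exon length at hand, which lean towards genes that changed, Nr4a1 ranked 519 by mean FPKM at 0 h PCS and 57 at 6 h PCS.

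Nr4a1 took a larger share of the family's FPKM at 6 h PCS. Its share was 79.4%, 81.1% and 68.6% in 0 h replicates 1, 2 and 3, and 88.2%, 90.4% and 88.1% in 6 h replicates 1, 2 and 3, with no overlap. Nr4a3 made up between 15.7% and 27.9% at 0 h and between 8.34% and 10.2% at 6 h PCS, and Nr4a2 between 3.07% and 3.5% and then between 1.21% and 2.09%. Because a ratio of 2 genes within a library does not depend on how libraries are scaled, the log2 ratio of counts was compared between the time points for the 3 pairs of genes. The log2 ratio of Nr4a3 to Nr4a1 was −1.41, −1.60 and −0.53 at 0 h PCS and −2.35, −2.67 and −2.40 at 6 h PCS, so that the mean fell by 1.29, which is 2.45-fold. The log2 ratio of Nr4a2 to Nr4a1 was −4.47, −4.40 and −4.06 at 0 h PCS and −5.54, −6.00 and −5.19 at 6 h PCS, so that the mean fell by 1.26, which is 2.40-fold. For both pairs the libraries did not overlap, and a two-sided exact permutation test gave p = 0.10, the smallest that 3 libraries against 3 allow, or 0.15 after Benjamini-Hochberg adjustment over the 3 pairs. The log2 ratio of Nr4a3 to Nr4a2 was 3.06, 2.81 and 3.54 at 0 h PCS and 3.19, 3.34 and 2.79 at 6 h PCS. Its mean differed by −0.030, less than the SD of either time point (exact permutation p = 0.90), and the difference lay between −0.19 and 0.17 when each library was left out in turn.

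**Figure D2:**
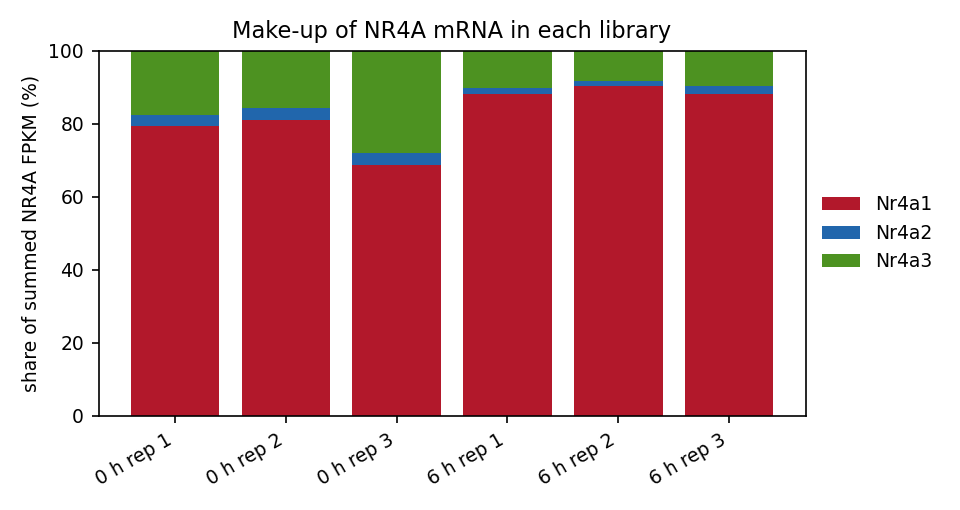
Share of each NR4A gene in the summed NR4A FPKM, in percent, with one stacked bar per library. Nr4a1 fills between 68.6% and 81.1% of the bars at 0 h and between 88.1% and 90.4% at 6 h PCS.

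The profiles of the members over the 6 libraries were compared with those of the other tested genes that have a symbol, 6365 for each member. The measure was the root mean square, over the 6 libraries, of the difference between 2 genes in log2 CPM, each centered on its own mean, so that a small distance means a like pattern and a like size of change. Nr4a2 and Nr4a3 were each other's nearest gene, at a distance of 0.276, and this also held among all 16809 other tested genes. With each library left out in turn, both ranked 1 for each other only without 0 h replicate 3. Without 6 h replicate 3, Nr4a3 ranked 62 among the genes nearest to Nr4a2 and Nr4a2 ranked 17 among those nearest to Nr4a3. Without any of the others, Nr4a3 ranked 1 to 8 and Nr4a2 ranked 5 to 6. Nr4a1 stood farther off, at 0.713 from Nr4a2 and 0.734 from Nr4a3. The genes nearest to Nr4a1 were Lipg, which encodes endothelial lipase, at 0.270, Egr3, an immediate early zinc finger transcription factor, at 0.278, and Thbs1, which encodes the matrix protein thrombospondin 1, at 0.280. After Nr4a3, the genes nearest to Nr4a2 were Cd33, a sialic acid binding receptor of myeloid cells, at 0.333 and Gm4813 at 0.358. Cd33 was at 0.11 to 0.43 CPM at 0 h and 0.81 to 2.95 CPM at 6 h PCS, and it was not a DEG (FDR 0.123). Gm4813 was at 0.18 to 0.26 CPM at 0 h and 1.21 to 3.25 CPM at 6 h PCS, so both distances rest on few read pairs. After Nr4a2, the genes nearest to Nr4a3 were Cd68, a lysosomal protein of macrophages, at 0.299 and Osmr, the oncostatin M receptor, at 0.315.

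**Figure D3:**
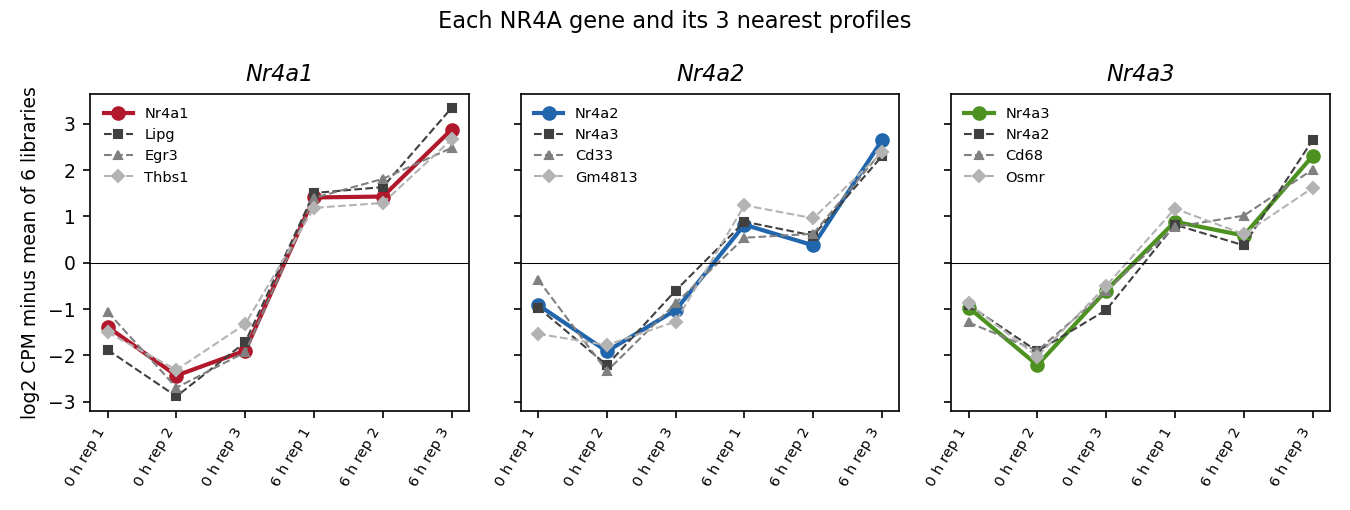
Log2 CPM of each NR4A gene and of its 3 nearest named genes, minus the mean of the 6 libraries, plotted without the prior count of 2 that the distances used, with lines that only join the points of a gene. Nr4a1 runs with Lipg, Egr3 and Thbs1, and Nr4a2 runs with Nr4a3. All of the genes drawn are highest in 6 h replicate 3.

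Thbs1, at 35.6, 20.3 and 40.2 CPM in 0 h replicates 1, 2 and 3 and 229, 246.5 and 637.5 CPM in 6 h replicates 1, 2 and 3, came close to Nr4a1 in level as well as in pattern. Egr3 was at 8.05, 2.59 and 4.40 CPM at 0 h and 44.2, 59.0 and 93.7 CPM at 6 h PCS, with a log2 fold change of 3.72 (FDR 0.00684). Both were lowest in 0 h replicate 2 and highest in 6 h replicate 3, as Nr4a1 was. Since Thbs1 and Egr3 were chosen for their small distance to Nr4a1 over these same libraries, this shared order is no separate finding. Their nearness to Nr4a1 was not tested with libraries left out.

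Among the nuclear receptor genes outside NR4A that had a symbol, none was a DEG in the edgeR fit used throughout. Of 46 other superfamily genes, 21 had a symbol at hand and all 21 passed the filter, and 0 of the 21 were DEGs in edgeR's quasi-likelihood test, where 13.7% of the 6366 tested genes with a symbol were DEGs. At an unadjusted p under 0.05 there were 9 of the 21, where 40.0% of the tested genes with a symbol were, and DESeq2 called 1 (Nr1h4) and the exact test of edgeR 0. Their log2 fold changes had a median of 0.36, against 0.19 over the tested genes with a symbol. In 7 of the 21 every 6 h library exceeded every 0 h library, and in 4 every 6 h library was lower, where 26.8% and 16.4% of the tested genes with a symbol did so. The 3 NR4A genes had the 3 largest log2 fold changes of these 24 genes, and the next was Nr1h4, the bile acid receptor gene, with 1.87 (SE 0.642 and FDR 0.112).

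Ppard, Rara and Nr2c2, outside NR4A, had an FDR below 0.05 with a change of less than 2-fold. Ppard, a fatty acid sensing receptor gene, was at 15.1, 17.6 and 15.2 CPM in 0 h replicates 1, 2 and 3 and at 23.7, 28.2 and 32.8 CPM in 6 h replicates 1, 2 and 3, a log2 fold change of 0.82 (SE 0.181 and FDR 0.0221). Rara, which encodes a retinoic acid receptor, was at 43.9 ± 2.12 and 65.5 ± 3.29 CPM (SD, n = 3), and the log2 fold change was 0.58 (FDR 0.0224). Nr2c2, an orphan receptor gene, was at 74.4 ± 1.63 and 46.6 ± 7.54 CPM (SD, n = 3), and the log2 fold change was −0.68 (FDR 0.0230). The NR4A genes took 6.30%, 2.58% and 5.68% of the read pairs counted on these 24 nuclear receptor genes in 0 h replicates 1, 2 and 3. In 6 h replicates 1, 2 and 3 they took 25.8%, 23.8% and 50.5%, with no overlap between the time points. These shares are of read pairs and not per length, and they leave out the 25 superfamily genes without a symbol.

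**Figure D4:**
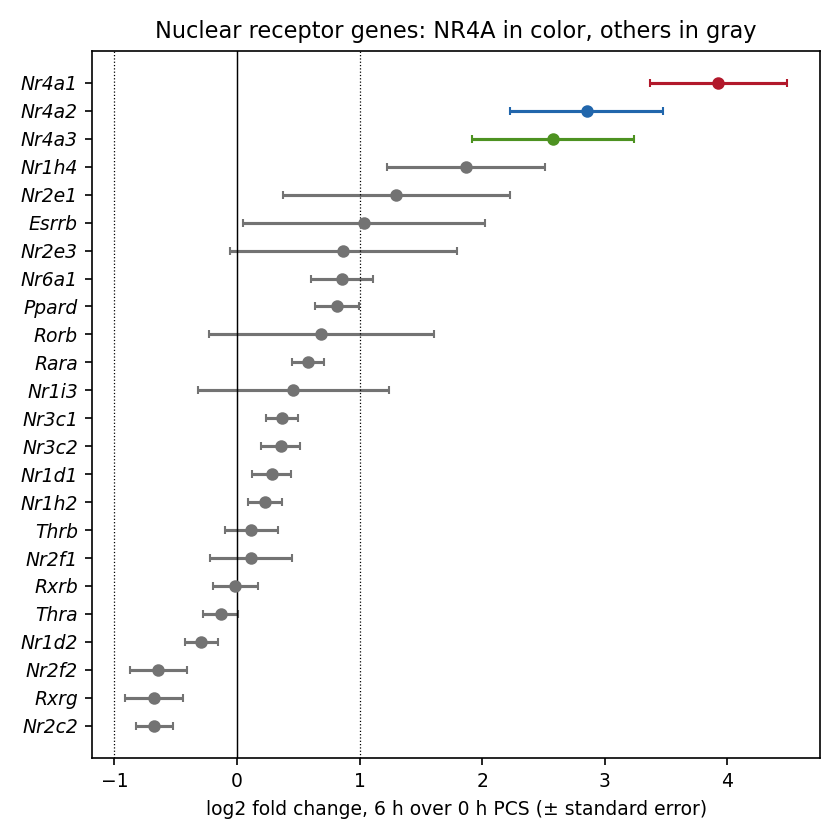
Log2 fold change from 0 h to 6 h PCS with its standard error for the 3 NR4A genes (in color) and the 21 other nuclear receptor genes with a symbol (in gray), with dotted lines at the fold limit of 2. Nr4a1, Nr4a2 and Nr4a3 lie at 3.92, 2.85 and 2.58, and the gray points lie between −0.68 and 1.87.

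NR4A genes are transcribed under factors that respond to cAMP, calcium and MAP kinases, among them CREB and its coactivators, MEF2 with the histone deacetylases that hold it back, calcineurin with NFAT, and SRF. Of 22 listed genes for such factors, 12 had a symbol and passed the filter, and 4 of the 12 were DEGs, all 4 higher at 6 h PCS, where 11.6% of the tested genes with a symbol were DEGs in that direction. Their median log2 fold change was 0.81 over the 12, and in 8 every 6 h library was above every 0 h library, where 26.8% of the tested genes with a symbol were so placed. In 2 of the 12, Prkacb and Mapk7, every 6 h library was lower, where 16.4% of those genes were. Srf, a factor that acts at serum response elements, rose from 16.1 ± 3.48 to 82.1 ± 16.6 CPM (SD, n = 3), and the log2 fold change was 2.35 (SE 0.207 and FDR 0.000267). Crtc2, a CREB coactivator gene, rose from 16.4 ± 2.33 to 37.2 ± 3.51 CPM (SD, n = 3), and the log2 fold change was 1.18 (FDR 0.00313). Nfatc1 rose from 5.92 ± 2.03 to 43.5 ± 25.0 CPM, a log2 fold change of 2.88 (FDR 0.00945), and Nfatc2 from 12.4 ± 6.88 to 62.5 ± 27.7 CPM (SD, n = 3), and the log2 fold change was 2.33 (FDR 0.0398). Hdac5 passed the FDR limit with a log2 fold change of 0.95 (FDR 0.0327) but not the fold limit, and for Mef2d the log2 fold change was 0.68 (FDR 0.0655).

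Of 14 other genes known to respond to cAMP and CREB, 9 had a symbol and 8 passed the filter, Sst being the one that did not. Of the 8, 5 were DEGs and all 5 rose, where 11.6% of the tested genes with a symbol were DEGs in that direction. In 7 of the 8 every 6 h library exceeded every 0 h library, where 26.8% of those genes did so, with a median log2 fold change of 1.88. Pde4b, a phosphodiesterase gene that opposes cAMP, rose from 8.70 ± 0.829 to 82.6 ± 19.95 CPM (SD, n = 3), and the log2 fold change was 3.25 (SE 0.209 and FDR 6.84e-05). Sik1, a kinase gene whose product restrains the CRTC coactivators, rose by 1.63 on the log2 scale (FDR 0.00386), Dusp1, a MAP kinase phosphatase gene, by 2.13 (FDR 0.00158), Junb, an AP-1 subunit gene, by 3.25 (FDR 0.0105) and Rgs2, a regulator of G protein signaling, by 1.19 (FDR 0.0263). Fos, another AP-1 subunit gene, had a log2 fold change of 3.72 (FDR 0.0599) and Per1, a circadian clock gene, one of 0.41 (FDR 0.161), and neither was called.

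Of 17 listed partners and coregulators of NR4A proteins, 7 had a symbol and passed the filter, and 1 of the 7 was a DEG, a share close to the 13.7% over the tested genes with a symbol. The median log2 fold change of those 7 genes was 0.27. Fhl2, whose LIM domain product binds NR4A1, rose from 0.419 ± 0.026 to 2.61 ± 1.58 CPM (SD, n = 3), and the log2 fold change was 2.62 (SE 0.672 and FDR 0.0415). It had few read pairs, with 10, 12 and 9 in 0 h replicates 1, 2 and 3 and 13, 66 and 66 in 6 h replicates 1, 2 and 3. Rxrb and Rxrg, which encode retinoid X receptors, had log2 fold changes of −0.013 and −0.67 (FDR 0.977 and 0.118). Bcl2, whose product is bound by NR4A1 at mitochondria, was at 28.6 ± 1.08 and 17.5 ± 4.07 CPM (SD, n = 3), and the log2 fold change was −0.71 (FDR 0.0578).

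Of 26 genes described as targets of NR4A proteins in muscle, neurons, steroid-producing cells and lymphocytes, 8 had a symbol and passed the filter, and 1 of the 8 was a DEG, where 13.7% of the tested genes with a symbol were. Slc6a3, the dopamine transporter gene and a target of NR4A2, rose from 1.21 ± 0.554 to 5.46 ± 2.20 CPM (SD, n = 3), and the log2 fold change was 2.17 (SE 0.489 and FDR 0.0241). Aldh1a1, a retinaldehyde dehydrogenase gene, was at 781, 775.6 and 732 CPM in 0 h replicates 1, 2 and 3 and at 327, 607 and 436.5 CPM in 6 h replicates 1, 2 and 3. Its libraries at 6 h PCS were all lower, with a log2 fold change of −0.74 (SE 0.206 and FDR 0.0562), and it was not called. Among the 8, every 6 h library was higher in 1 gene and lower in 2, where the shares over the tested genes with a symbol were 26.8% and 16.4%, and the median log2 fold change was 0.25. Lpin1, a gene of lipid metabolism, had a log2 fold change of −0.26 (FDR 0.348).

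**Figure D5:**
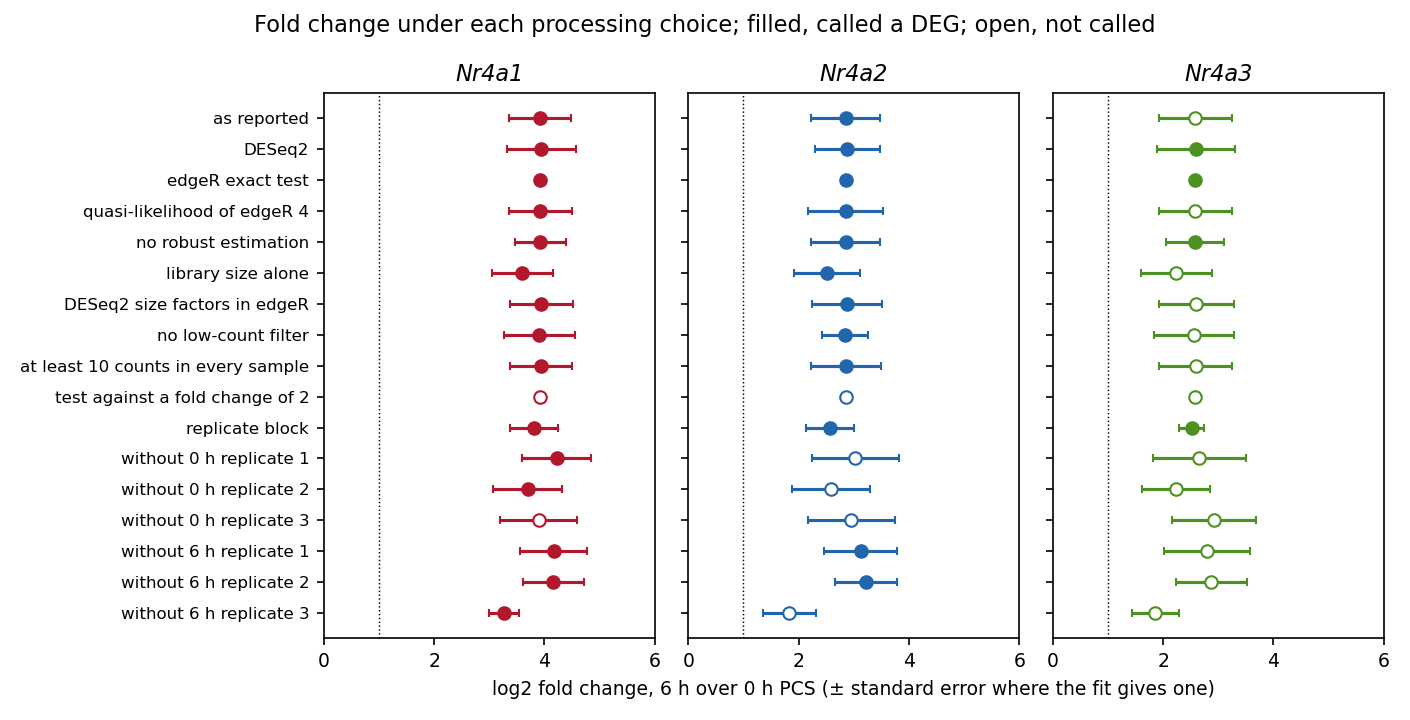
Log2 fold change from 0 h to 6 h PCS of each NR4A gene under each processing choice, with standard errors where the fit gives one, filled where the gene was called a DEG and open where it was not. The dotted line marks the fold limit of 2. All values lie between 1.83 and 4.22, and leaving out 6 h replicate 3 gives the lowest value of each gene.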

How the data were processed

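Per the methods of the study, reads were paired and 101 nt long, Hisat2 mapped them to GRCm38, and HTSeq (union mode) assigned the pairs to genes of an Ensembl annotation. What the authors deposited are these raw counts, one file per library, and versions of these tools and the strand setting are not given in the sources used here. The labels also name SMARTer Stranded Pico v2 and ribodepletion. The 5 summary rows of HTSeq were left out. Genes took 33.6% to 41.2% of the read pairs.

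Counts were fitted with edgeR 4.0.16 in R 4.3.3 with TMM factors, its filter on low counts by group, robust dispersions and the quasi-likelihood F-test in the form of earlier versions, with Benjamini-Hochberg adjustment. The standard error was the log2 fold change divided by the square root of F. The alternatives used DESeq2 1.42.0, other edgeR settings, a block for the replicate number and each library left out in turn. Ratios used 0.5 added to each count and an exact permutation test in scipy 1.17.1.

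Symbols, for 6366 tested genes, and exon lengths came from the supplementary tables of the study, whose named genes lean towards changed ones. Coordinates are those of RefSeq for GRCm38.p6. Named were the 3 members, the 3 nearest profiles of each, the DEGs of each list, its 2 genes of lowest p that were no DEG, and marker sums. One gene that this rule names is not reported here. Nr1h4, Nr2c2, Rxrb, Rxrg, Prkacb, Mapk7, Col1a1, Cdh5, Pecam1, Kdr, Tek, Pdgfra, Dcn, Ptprc, Itgam, Csf1r and Lyz2 were named after their values were seen. The members and lists were chosen with earlier results of these data known. Each pool held capsules of 5 independent animals per the methods, and p-values measure the spread between these pools.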

Additional observations from a re-analysis of the deposited data

How the results depend on the processing

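The log2 fold changes of the 3 NR4A genes were positive under every alternative tried. Nr4a1 was a DEG in 9 of 10 alternatives with all libraries and in 5 of 6 without one library (log2 fold change 3.26 to 4.22, edgeR adjusted p 0.000741 to 0.0512). It was not called in a test against a fold change of 2 (3.92, adjusted p = 0.0525) or without 0 h replicate 3 (3.89, adjusted p = 0.0512). Nr4a2 was a DEG in 9 of 10 alternatives and in 2 of 6 without one library (1.83 to 3.22, adjusted p 0.0163 to 0.0947). It was not called in the test against a fold change of 2 (2.85, adjusted p = 0.154), without any one library at 0 h PCS or without 6 h replicate 3. Nr4a3 became a DEG with DESeq2 (2.60), the exact test of edgeR (2.58), no robust estimation (2.58, adjusted p = 0.0182) and the replicate block (2.52, adjusted p = 6.12e-05), and in 0 of 6 fits without one library (1.86 to 2.92, adjusted p 0.0657 to 0.229). Whether the replicate numbers mark pools that share mice is not given in the sources used here. The deviations of same-numbered libraries from their group means correlated at 0.0037, 0.22 and 0.14, and those of unlike-numbered libraries between −0.19 and 0.023. Because not all same-numbered pairs were above 0.1, the fit without the block was kept. These values do not settle whether the replicate numbers mark shared mice, and the call of Nr4a3 depended on this choice. Not every library correlated best with its own number. With the replicate block, 1050 genes were DEGs, against 900 without it.

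Other nuclear receptors gave 1 DEG with DESeq2 or without the low-count filter (Nr1h4), 1 with the replicate block (Esrrb), and 0 to 1 without one library. Over all genes, 221 were DEGs in the test against a fold change of 2, and 553 to 877 without one library. On library size alone, 572 DEGs were higher and 627 lower, against 762 and 138, the median of all genes shifted to −0.32, and the NR4A values were 3.6, 2.52 and 2.24. The Nr4a3 to Nr4a2 ratio difference changed sign with 2 counts added (0.012) and lay between −0.19 and 0.17 without one library. The differences of the ratios to Nr4a1 lay between −1.46 and −1.05 (Nr4a2) and between −1.50 and −0.97 (Nr4a3) without one library. As profiles, chosen after seeing the data, Nr4a3 stayed nearest to Nr4a2 on log2 of CPM plus 0.1, and ranked 1 to 62 without one library, while Nr4a2 ranked 1 to 17 for Nr4a3. The cause of these changes was not tested.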
